A study of Drosophila melanogaster with 30 samples.

Results

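The Npc2 genes of Drosophila melanogaster encode small secreted proteins of the Niemann-Pick type C family, which bind sterols. The genes Npc2a to Npc2h and the membrane protein gene Npc1b, 9 genes in all, were looked up as probe sets whose single gene symbol in the platform annotation is one of these names. All 8 Npc2 genes had 1 probe set each, out of 15309 probe sets on the array, of which 13441 carried 1 gene symbol. No probe set was listed under Npc1b alone, so this gene was not analysed here. The genes were selected by name, but the family was proposed after results of these arrays had been seen. Which of the measured values led to it is not recorded, so every contrast of these arrays is counted as used. Every difference below therefore describes these arrays, and the p-values beside them, which come from a model of all probe sets, are no independent support.

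Flies get their sterols from food because they cannot make the sterol ring. In cells, an NPC2 protein inside the lysosome takes up free sterol and hands it to the membrane protein NPC1, which passes it on to other membranes. In the fly, Npc1b acts in the midgut, where it is needed to absorb dietary sterol, and Npc1a acts in sterol traffic within cells. Sterols are membrane components and the starting material of ecdysteroid hormones.

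Whole-genome expression had been measured in adult virgin males of a laboratory stock founded from the field, on 30 arrays, 3 for each of 10 groups. The groups differ in the food, rich (R) or poor (P), on which each generation developed. Group names string together the foods of successive generations, starting with F0, and the last letter is the food of the males measured. In F0 there were R and P. The F1 males descended from rich-fed parents (R-R, R-P) or from poor-fed parents (P-R, P-P). All F2 males had F1 parents fed rich, and their grandparents had been fed rich (R-R-R, with R-R-P) or poor (P-R-R, with P-R-P). Flies were frozen without further treatment. The labels used here state no food recipe, age or number of flies per sample. They do not say whether replicate samples were separate cultures, so the p-values reflect sample-to-sample spread alone, part of which may be technical.

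Expression is given as the deposited normalized value, taken as log2, and differences are poor minus rich on that scale with the standard error (SE) of the model. Array medians over all probe sets lay between 0.82 and 0.94. A pair of arrays from these males held ovary transcripts: 12 female and ovary markers averaged 3.68 on replicate 2 of R-P and 3.35 on replicate 2 of P-R-R, against 0.29 to 0.52 on the other 28. Another pair, replicates 1 and 3 of R-R, was low in 7 cuticle markers, at 1.99 and 2.08 against 3.22 to 5.18 on the other 28. The 5 accessory gland markers, which mark males, averaged 5.002 to 5.484 on the 26 remaining arrays, 5.05 to 5.06 on the first pair and 5.16 to 5.32 on the second. The 7 testis markers averaged 2.09 and 2.10 on the first pair, below the 2.20 to 2.50 of the 26 remaining arrays. On the second pair they averaged 2.38 to 2.40. All 4 arrays were kept under their labels, and values without them are given where they bear on a result. In RNA of whole bodies, fewer cells of a type and less RNA per cell cannot be told apart.

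The genes of the family differed in how widely their levels spread between groups. Npc2a lay between 4.82 and 5.49 on all 30 arrays (median 5.21). Its 10 group means spanned 0.36, and its standard deviation within groups was 0.20. Npc2b lay between 3.64 and 4.55 (median 4.30), with group means spanning 0.45 and a within-group standard deviation of 0.21. Npc2d covered the widest range, from 2.91 to 5.80 (median 4.75). Its group means spanned 1.99, the 33rd widest span among the 15309 probe sets, from 3.54 in R-P to 5.53 in P-R-R. Both of these groups hold an array with ovary transcripts, and without those arrays their means were 3.86 and 5.475. The within-group standard deviation of Npc2d, 0.40, was higher than that of 96.8% of all probe sets.

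Npc2h, at 2.77 to 4.30 (median 3.70), had group means spanning 0.92 with a within-group standard deviation of 0.21. Npc2f, at 1.80 to 2.97 (median 2.46), spanned 0.82 in its group means. Npc2g, at 2.23 to 3.89 (median 3.02), spanned 0.57, and its within-group standard deviation of 0.40 was higher than that of 96.6% of all probe sets. Both remaining genes were dim. Npc2c, at -0.04 to 0.64, lay below the array median on 30 of 30 arrays, and Npc2e, at 0.10 to 1.30, on 26 of 30, so their differences are small changes near the lower end of the scale. Of the 8 genes, 6 had a mean of at least 2 over all arrays, and Npc2c and Npc2e did not.

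When the 10 groups were ordered by their mean, neighbouring groups overlapped in every gene: in none of the 8 genes did any of the 9 steps between neighbours separate the arrays of both groups. Over all 45 pairs of groups, the arrays were apart in 19 pairs (42.2%) for Npc2h, 16 (35.6%) for Npc2d, 10 (22.2%) for Npc2f and 9 (20.0%) for Npc2e. They were apart in 5 pairs (11.1%) for Npc2b and for Npc2c, and in 2 pairs (4.44%) for Npc2a and for Npc2g. Over all probe sets the share was 11.2%. Npc2b, Npc2c, Npc2a and Npc2g were thus at or under the share of all probe sets.

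**Figure D1:**
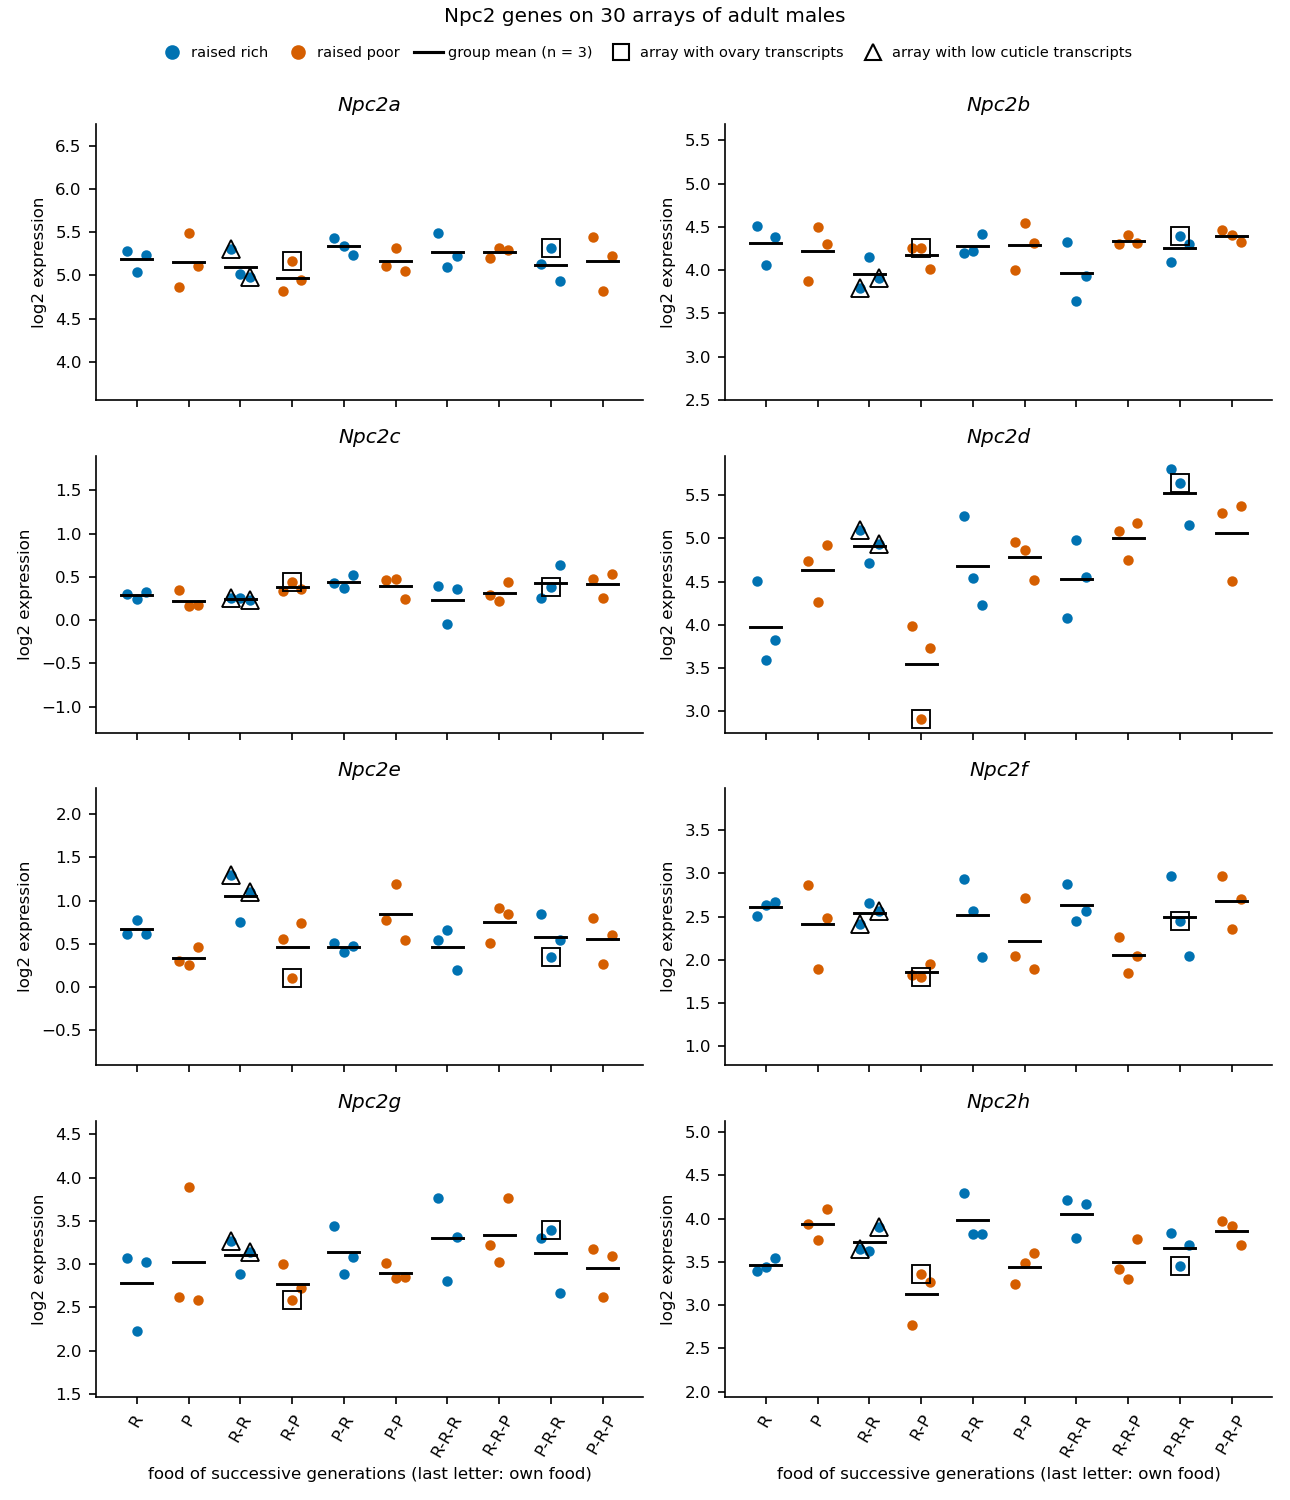
Log2 expression (y axis, 3.2 units in every panel) of the 8 Npc2 genes in the 10 diet groups (x axis); points are arrays, blue for flies raised rich and orange for flies raised poor, bars are means of 3 arrays, and open squares and triangles mark the 4 arrays that stand apart. Npc2d runs from 2.91 to 5.80, Npc2h is apart in several pairs of groups, and Npc2a stays between 4.82 and 5.49.

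The first comparison was own food, in 5 pairs of groups with the same ancestry. Averaged over the 5 pairs, limma called 1.84% of all probe sets at an adjusted p under 0.05 and 0 of the 8 Npc2 genes, while 2 of the 8 had an unadjusted p under 0.05 (10.2% of all probe sets). Those were Npc2f, at -0.31 ± 0.11 (SE; limma adjusted p = 0.189), and Npc2h, at -0.20 ± 0.08 (limma adjusted p = 0.251). The other 6 averages ran from -0.12 (Npc2d) to 0.13 (Npc2b), and the median over the 8 genes was -0.07, against -0.01 over all probe sets. None of the 8 kept 1 sign in all 5 pairs, which 9.05% of all probe sets did.

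Pair by pair, limma called 1 of the 8 genes in R-P against R-R (0.601% of all probe sets) and 0 in the other 4 pairs. The share of all probe sets called was 0.183% for P against R, 0.0523% for P-P against P-R, 0.0588% for R-R-P against R-R-R and 0.0719% for the F2 males of poor-fed grandparents. At an unadjusted p under 0.05 the numbers were 4 of 8 in R-P against R-R (8.93% of all probe sets), 2 in P against R (6.25%), 1 in P-P against P-R (4.38%), 3 in R-R-P against R-R-R (7.75%) and 0 in the last pair (8.82%). The arrays of a pair were apart for 5 of the 8 genes in R-P against R-R (12.5% of all probe sets), 2 in P against R (11.1%), 2 in P-P against P-R (10.4%), 2 in R-R-P against R-R-R (13.3%) and 0 in the last pair (10.5%).

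**Figure D2:**
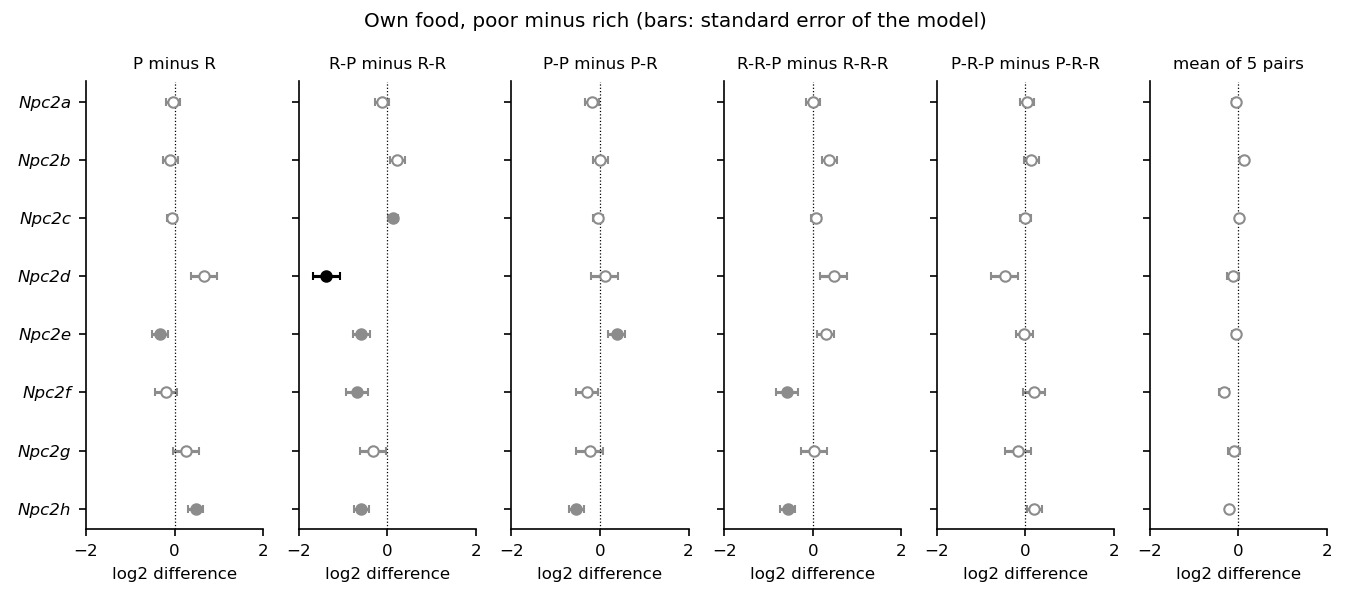
Log2 difference between flies raised poor and flies raised rich (x axis) for each Npc2 gene (y axis) in the 5 pairs of groups and on average; bars are ± 1 standard error of the model, filled points are pairs whose arrays do not overlap (not drawn for the average), and black marks a limma adjusted p under 0.05. Npc2d in R-P against R-R, at -1.37, is the single black point.

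Npc2a is the fly gene most like vertebrate NPC2, and loss of it disturbs sterol distribution in fly cells. Its values were 5.28, 5.04 and 5.23 in R and 4.87, 5.49 and 5.11 in P. They were 5.30, 5.01 and 4.98 in R-R against 4.82, 5.16 and 4.94 in R-P. The arrays overlapped in all 5 own-food pairs, and the 5 differences ran from -0.17 to 0.04. Npc2b acts redundantly with Npc2a in ecdysteroid-dependent development. It too overlapped in all 5 pairs, with differences from -0.09 to 0.37. The highest of them was R-R-P, at 4.30, 4.41 and 4.31, against R-R-R, at 4.33, 3.64 and 3.93 (0.37 ± 0.17, limma adjusted p = 0.598). The R-R-P arrays lay within 0.11 of each other, and the R-R-R arrays spread over 0.69.

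Npc2d carried the single call. It read 3.99, 2.91 and 3.73 in R-P and 5.10, 4.72 and 4.93 in R-R. Every R-P array was below every R-R array, and all 3 were also below all arrays of every other group but R. The difference was -1.37 ± 0.30 (limma adjusted p = 0.0222), a level 0.386 times that of R-R. In the other own-food pairs the difference was 0.67 ± 0.30 in P against R, 0.11 in P-P against P-R, 0.47 in R-R-P against R-R-R and -0.47 between P-R-P and P-R-R, and the arrays overlapped each time. F0 flies raised rich, at 4.51, 3.59 and 3.82, were next lowest after R-P and overlapped with it.

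The call was lost under several settings in which the difference stayed below 0. Replicate 2 of R-P, which held ovary transcripts, gave the lowest Npc2d value of all 30 arrays. Without it the difference was -1.06 ± 0.31 (limma adjusted p = 0.235), and R-P, then at 3.99 and 3.73, still lay below all R-R arrays. Leaving out replicate 1 or replicate 3 of R-R gave -1.28 and -1.37 (limma adjusted p = 0.144 and 0.0906). Replicate 3 of R-P is not among the 4 arrays that stand apart, and without it the difference was -1.47 (limma adjusted p = 0.0567). With all arrays of R-P and R-R but no other group in the model, it was -1.37 (limma adjusted p = 0.119). With both low-cuticle arrays of R-R left out, 1 R-R array remained and the difference was -1.18 ± 0.44 (limma adjusted p = 0.755). Without all 4 arrays it was -0.86 ± 0.43 (limma adjusted p = 0.995).

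**Figure D3:**
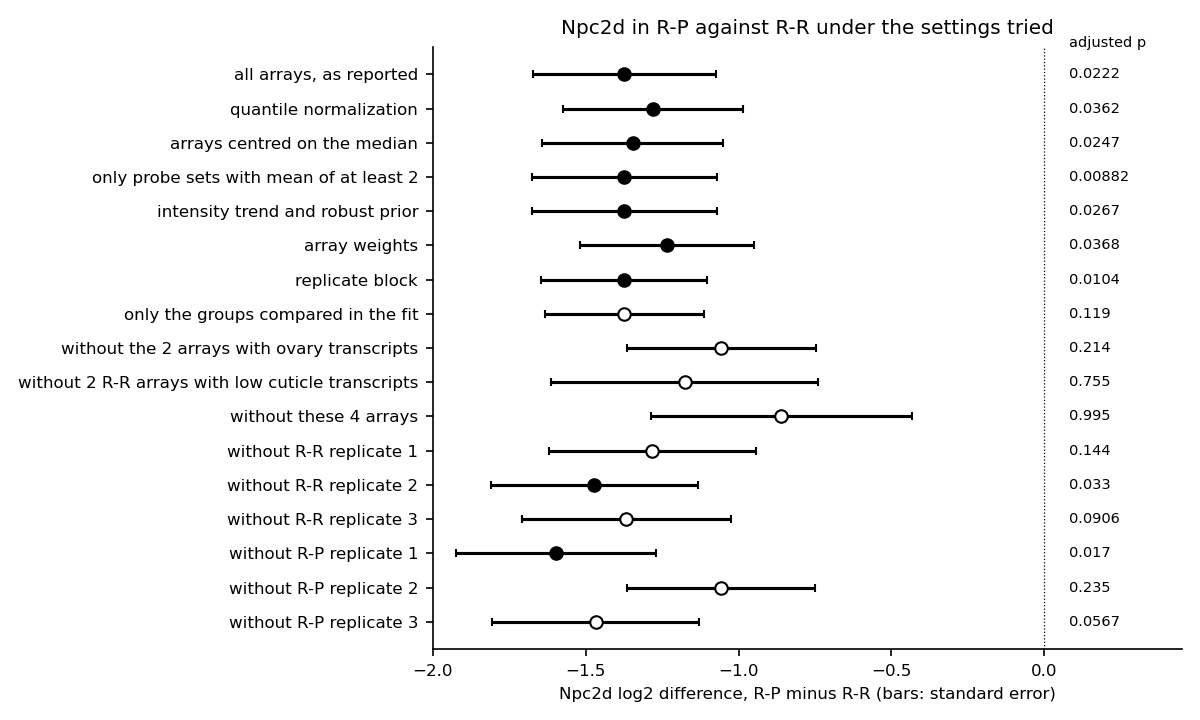
Npc2d log2 difference between R-P and R-R (x axis, bars ± 1 standard error) under each setting named on the y axis, with the limma adjusted p at the right; filled points have an adjusted p under 0.05. The difference runs from -1.60 to -0.86 and is below 0 under every setting drawn, while the call is lost at the open points, among them those without replicate 1 or 3 of R-R or replicate 2 or 3 of R-P.

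Midgut markers were also lowest in R-P. The 9 measured midgut markers, 2 of which (LManI and Vha100-4) averaged below 1 on the arrays, had a mean of 5.05, 4.50 and 4.45 on the R-P arrays and 5.31, 5.13 and 4.96 on the R-R arrays, so these groups overlapped. Single midgut markers differed unequally between R-P and R-R, from -1.45 to -0.11 with a median of -0.30. Replicates 3 and 2 of R-P and replicate 2 of R, at 4.45, 4.50 and 4.61, held the 3 lowest midgut means of the 30 arrays. The same 3 arrays held the 3 lowest Npc2d values, 3.73, 2.91 and 3.59. The next lowest Npc2d arrays, replicate 3 of R at 3.82 and replicate 1 of R-P at 3.99, had midgut means of 5.14 and 5.05. P-R-R, the group highest in Npc2d at 5.53, had a midgut mean of 5.01. Replicate 3 of P-R-R, sixth from the bottom in midgut markers at 4.76, read 5.15 for Npc2d. The 4 measured Malpighian tubule markers were also lowest in R-P among the 10 groups, with a mean of 2.11, 1.91 and 2.14 on its arrays, apart below 2.63, 2.42 and 2.83 in R-R. Their median difference was below 0 in all 5 own-food pairs, from -0.53 to -0.20. For own food on average, 3 of the 4 fell in limma (median -0.36), where 1.84% of all probe sets were called. On that average, 7 of 7 cuticle markers and 1 of 5 accessory gland markers rose and 1 of 9 midgut markers fell. Among fat body markers 1 rose and 1 fell. In R-P against R-R (0.601% of all probe sets called), limma called 0 of the 4 tubule markers. There 5 cuticle markers and 1 fat body marker rose, and 1 midgut marker fell. The 7 fat body markers averaged 4.82 to 5.03 in R-P and 4.22 to 4.69 in R-R, and the 7 cuticle markers had group means of 4.71 and 2.72. The part of these tissues in the Npc2d difference was not tested.

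**Figure D4:**
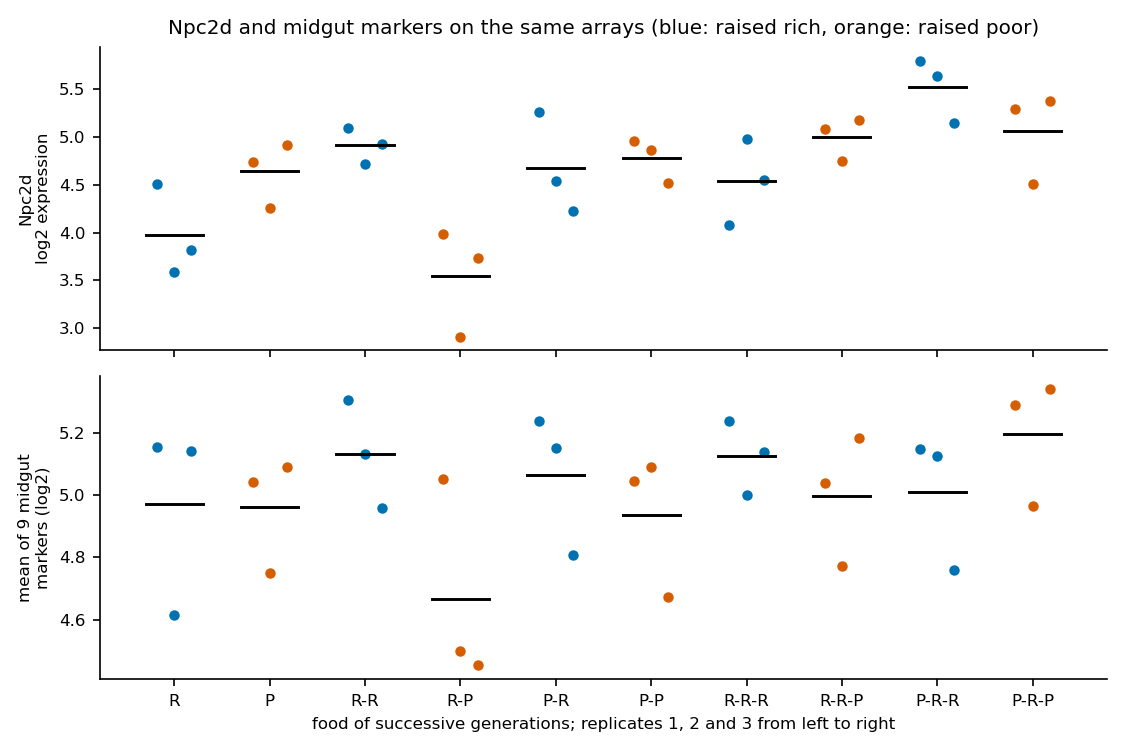
Npc2d log2 expression (upper panel) and the mean log2 expression of 9 midgut markers (lower panel) on the same 30 arrays by diet group (x axis), with bars for group means of 3 arrays. R-P is the lowest group in both panels, with means of 3.54 for Npc2d and 4.67 for the markers.

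Npc2d had a neighbour on either side in the genome, Npc2e and Npc2c, with no annotated gene between them on chromosome arm 3R. The products of Npc2a, Npc2e and Npc2h have been shown to bind surface components of bacteria. Npc2e read 1.30, 0.75 and 1.10 in R-R and 0.56, 0.10 and 0.74 in R-P, with R-R apart above R-P (-0.58 ± 0.18, limma adjusted p = 0.220). In F1 flies of poor-raised parents the order was turned, with 0.78, 1.19 and 0.55 in P-P above 0.51, 0.41 and 0.47 in P-R (0.38 ± 0.18, limma adjusted p = 0.998). In F0 it read 0.61, 0.78 and 0.61 in R, above 0.30, 0.25 and 0.46 in P (-0.33 ± 0.18, limma adjusted p = 0.853). The R-R against R-P difference was -0.10 ± 0.24 without the 4 arrays that stand apart, which include the highest R-R arrays and the lowest R-P array of this gene. Npc2c was apart in 1 own-food pair, with 0.34, 0.44 and 0.36 in R-P above 0.26, 0.26 and 0.23 in R-R (0.13 ± 0.12, limma adjusted p = 0.826), at values below the array medians.

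Npc2h was apart in 4 of the 5 own-food pairs, in both directions. In each of those 4 pairs 10.4% to 13.3% of all probe sets were apart. The share of probe sets apart in 4 of the 5 pairs was not counted. F0 flies raised poor, at 3.94, 3.75 and 4.11, lay above F0 flies raised rich, at 3.39, 3.44 and 3.55 (0.47 ± 0.17, limma adjusted p = 0.489). In the next generation the order was turned: R-P read 2.77, 3.36 and 3.27 against 3.65, 3.63 and 3.90 in R-R (-0.59 ± 0.17, limma adjusted p = 0.143). P-P, at 3.24, 3.49 and 3.60, lay below P-R, at 4.30, 3.82 and 3.82 (-0.54 ± 0.17, limma adjusted p = 0.707). R-R-P, at 3.42, 3.30 and 3.77, lay below R-R-R, at 4.22, 3.78 and 4.17 (-0.56 ± 0.17, limma adjusted p = 0.318). In F2 flies of poor-raised grandparents the groups overlapped, with 3.97, 3.92 and 3.70 in P-R-P and 3.84, 3.45 and 3.70 in P-R-R (0.20). Without the 4 arrays that stand apart, R-P against R-R was at -0.61 ± 0.25 for this gene.

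Groups apart upward in 1 own-food pair and downward in another were found for Npc2h and Npc2e, 2 of the 8 genes, and for 4.35% of all probe sets. An F test in the same limma model, added after the values had been seen, asked whether the own-food difference was the same in all 5 pairs. Its adjusted p was 0.215 for Npc2h, 0.353 for Npc2d and 0.623 for Npc2e, so 0 of the 8 genes passed (0.0392% of all probe sets did).

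Npc2g lies next to Npc2h on chromosome arm 3R with no annotated gene between them, but overlapped in all 5 pairs. Its differences ran from -0.33 to 0.25, and its arrays spread widely, for example 2.62, 3.89 and 2.58 in P. Across the 10 group means, Npc2g and Npc2h correlated at r = 0.57 (Pearson), and within groups, over the 30 arrays, at 0.07. Npc2f was lower after poor food in 4 of the 5 pairs and apart in 2 of them, both with rich-raised ancestors. It read 1.82, 1.80 and 1.95 in R-P against 2.41, 2.66 and 2.57 in R-R (-0.69 ± 0.24, limma adjusted p = 0.316). R-R-P, at 2.26, 1.85 and 2.05, lay below R-R-R, at 2.88, 2.45 and 2.57 (-0.58 ± 0.24, limma adjusted p = 0.557). In groups with poor-raised parents or grandparents the arrays of this gene overlapped, for example 2.04, 2.71 and 1.90 in P-P and 2.94, 2.57 and 2.03 in P-R.

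The second comparison was the food of the parents in F1 flies and of the grandparents in F2 flies. Limma called 0 of the 8 genes for parental food in flies raised rich (0.0523% of all probe sets), raised poor (0.0131%) and on average (0.0196%), and 0 for grandparental food, where it called 0 of all 15309 probe sets in each contrast. At an unadjusted p under 0.05 it was 1 of 8 (5.49% of all probe sets), 1 (6.58%) and 2 (6.77%) for parental food, and 2 (8.57%), 2 (5.13%) and 1 (5.51%) for grandparental food, in the same order.

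Npc2d had the largest of these differences. In F1 flies raised poor it read 4.96, 4.87 and 4.52 with poor-raised parents and 3.99, 2.91 and 3.73 with rich-raised parents (1.24 ± 0.30, limma adjusted p = 0.329). Without replicate 2 of R-P the difference was 0.92, and the groups stayed apart. In F1 flies raised rich the groups overlapped (-0.24). In F2 flies raised rich it read 5.80, 5.64 and 5.15 with poor-raised grandparents, the highest group of all, and 4.08, 4.98 and 4.55 with rich-raised grandparents (0.99 ± 0.30, limma adjusted p = 0.328). Without the arrays with ovary transcripts, which include the middle one of the P-R-R values, this difference was 0.94 ± 0.31. In F2 flies raised poor the difference was 0.05.

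Comparisons of own and of ancestral food share groups, so R-P enters both the own-food and the parental-food difference of Npc2d. All 8 genes were higher in P-P than in R-P, by 0.02 to 1.24 with a median of 0.25, and 52.0% of all probe sets were higher (median 0.01). In the same comparison the median difference was 0.29 for the 9 midgut markers and 0.20 for the 4 tubule markers. It was 0.24 for cuticle, 0.20 for salivary gland, 0.03 for fat body and 0.02 for accessory gland markers. For testis markers it was -0.03, and for female and ovary markers, high on 1 R-P array, -1.03. The part of any of these tissues in the shift of the Npc2 genes was not tested. In flies raised rich, parental food gave 5 differences above 0 and 3 below. Npc2e read 0.51, 0.41 and 0.47 in P-R, apart below R-R (-0.59 ± 0.18, limma adjusted p = 0.560), but -0.29 without the 2 low-cuticle arrays of R-R. Npc2b was apart above R-R in P-R, at 4.20, 4.22 and 4.42 (0.33 ± 0.17, limma adjusted p = 0.937), but by 0.13 ± 0.24 without those 2 arrays. Npc2f in P-R-P, at 2.97, 2.36 and 2.70, was apart above R-R-P (0.62 ± 0.24, limma adjusted p = 0.920). Groups were apart for 3 of 8 genes in P-R against R-R (10.8% of all probe sets) and for 1 gene in each of the other 3 comparisons (10.5%, 9.61% and 11.6%).

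**Figure D5:**
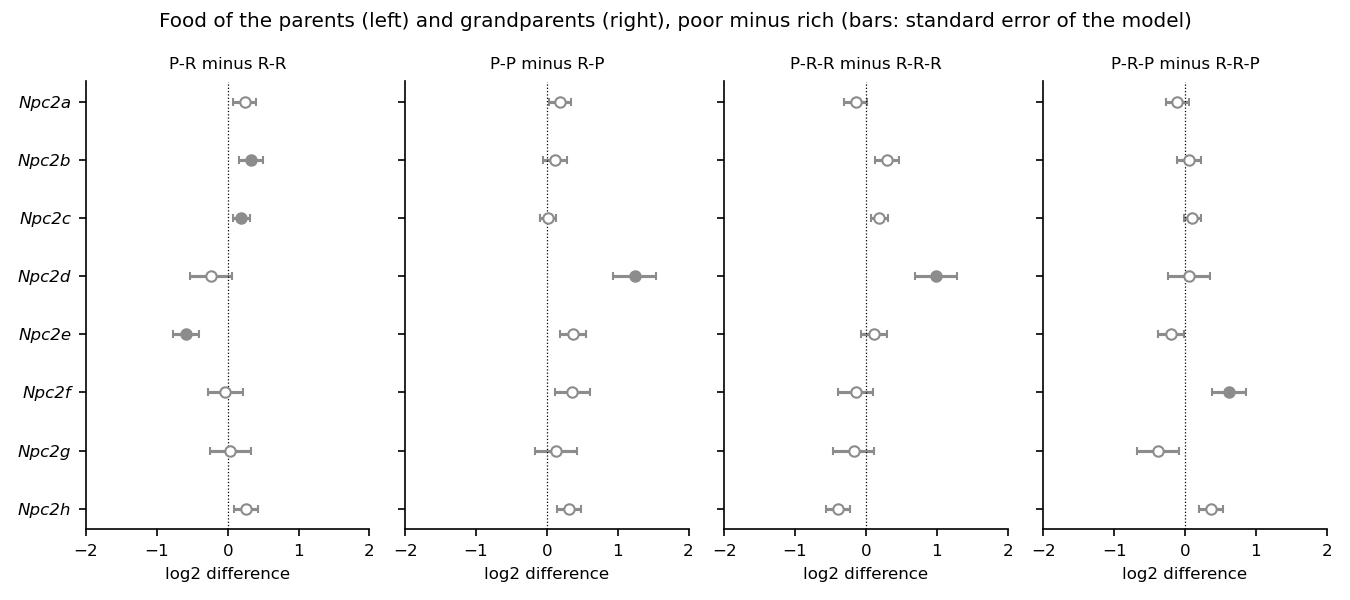
Log2 difference (x axis) of each Npc2 gene (y axis) between flies whose parents or grandparents were raised poor and flies whose ancestors were raised rich, in 4 pairs of groups; bars are ± 1 standard error of the model, and filled points are pairs whose arrays do not overlap. No point has a limma adjusted p under 0.05, and the Npc2d points at 1.24 and 0.99 are farthest from 0.

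Whether own food acted differently under poor and rich ancestry was asked with 2 interactions. Limma called 0 of the 8 genes in F1 (0.00653% of all probe sets) and 0 in F2 (0 probe sets). In F1 the interaction was 1.48 ± 0.42 for Npc2d (limma adjusted p = 0.682) and 0.96 ± 0.26 for Npc2e (limma adjusted p = 0.534), and both had an unadjusted p under 0.05 (4.87% of all probe sets). Without the 4 arrays that stand apart these were 0.97 ± 0.51 and 0.48 ± 0.29. In F2 the interaction was 0.76 ± 0.24 for Npc2h (limma adjusted p = 0.444), 0.77 ± 0.35 for Npc2f and -0.94 ± 0.42 for Npc2d, the 3 genes with an unadjusted p under 0.05 (7.64% of all probe sets). Without the 4 arrays, among them replicate 2 of P-R-R, the F2 values were 0.65 ± 0.25 for Npc2h, 0.75 ± 0.39 for Npc2f and -0.885 ± 0.43 for Npc2d. Among the 3 groups that never met poor food, in F0, F1 and F2, limma's F test passed 0 of the 8 genes (0.00653% of all probe sets). Npc2h had the lowest adjusted p there, 0.456, with means of 3.46 ± 0.08 (SD, n = 3) in R, 3.73 ± 0.15 in R-R and 4.06 ± 0.24 in R-R-R.

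The 8 genes did not share 1 pattern across arrays. Among their 28 pairs, Pearson's r over the 30 arrays ran from -0.19 to 0.67 with a median of 0.14. The highest belonged to Npc2a and Npc2g (0.67 over all arrays and 0.69 within groups), followed by Npc2f and Npc2h (0.60 and 0.39). Npc2d and Npc2e, which are neighbours, stood at 0.32, and Npc2d and Npc2c, also neighbours, at 0.06. These arrays share 1 normalization, and the values are descriptions. Of 13433 other single-symbol probe sets, the 3 whose values followed Npc2d most closely over the 30 arrays were CG33306 (r = 0.84), CG12057 (r = 0.84) and CG7953 (r = 0.83). For own food on average 0 of the 3 was called, nor was Npc2d itself, against 1.84% of all probe sets. Their difference between R-P and R-R, where Npc2d was called, is not given here.

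Other genes of sterol handling gave few calls for own food on average, where 1.84% of all probe sets were called. Of 10 measured genes of sterol transport and sensing, 1 rose and 0 fell in limma. The gene that rose was mag, which encodes a secreted gut lipase with sterol esterase activity (0.42 ± 0.10, limma adjusted p = 0.0297). In the 5 pairs mag differed by 1.27, -0.27, 0.15, 0.28 and 0.67, in the order of the plot of own-food differences, and was called in F0 alone (limma adjusted p = 0.0127). Npc1a, the measured partner gene of the NPC2 proteins, averaged 2.70 to 3.14 in the 10 groups and differed by 0.16 ± 0.08 (limma adjusted p = 0.460). Hr96, for a nuclear receptor that binds cholesterol and regulates Npc1b and mag, differed by 0.07 ± 0.07 (limma adjusted p = 0.849).

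Of 14 genes for lipoproteins and lipid receptors, 0 rose and 1 fell, the lipid carrier gene Apoltp (-0.86 ± 0.08). Of 18 ecdysteroid synthesis and response genes and of 14 lysosomal genes, 0 passed in either direction. Most of these ecdysteroid genes averaged below the lowest array median, 0.82, so the absence of calls says little about them. Of 16 genes of microbial recognition and the imd pathway, 0 rose and 1 fell, the pathway inhibitor gene pirk (-0.66 ± 0.13). Median differences of these 5 lists ran from -0.08 to 0.04, against -0.01 over all probe sets.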

How the data were processed

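For every array the authors deposited log2-scale values of all probe sets, computed by GCRMA (background correction by probe sequence, normalization between arrays and summary into probe sets) per the submitters' processing notes. Neither its version nor the base of the logarithm is given in the sources used here, and base 2, usual for the method, was assumed. The values run from -0.56 to 10.78. Only the number of arrays, 3 per group, is known to limit the precision. Genes were named through the platform annotation (555 probe sets had several symbols and 1313 none), and neighbours were read from RefSeq (Release 6).

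Contrasts came from a linear model with a mean for each of the 10 groups, run in limma 3.58.1 (R 4.3.3; lmFit and eBayes, without covariates or filter) on 15309 probe sets and 30 arrays and tested on simulated data. Benjamini-Hochberg adjustment covered all probe sets of a contrast, and an adjusted p under 0.05 was called. The alternatives were quantile normalization, centring, a minimum mean of 2, a trended robust prior, array weights, a replicate block, only the compared groups in the model, and leaving out arrays singly or those that stand apart. Same-numbered arrays of the 5 own-food pairs correlated at -0.10 to 0.11 in their deviations from group means, so the numbers were not treated as pairs. All Npc2 genes, Npc1a and Hr96 are named. So are, in each of 5 pathway lists, the genes called for own food on average (at most 6), and the 3 genes most like each called Npc2 gene. Members and lists were chosen with earlier results of these data known. No sequences are shown.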

Additional observations from a re-analysis of the deposited data

Results flagged for a closer look

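Npc2h and Npc2e stood out because, among the 5 own-food pairs, every array of 1 group lay above the other in some pairs and below it in others. For Npc2h the poor minus rich difference was 0.47 in F0, and it was -0.59 in R-P against R-R, -0.54 in P-P against P-R and -0.56 in R-R-P against R-R-R. For Npc2e it was -0.33 in F0 and -0.58 in R-P against R-R, and 0.38 in P-P against P-R. Npc2e was dim, below the array median on 26 of 30 arrays. Leaving out the 4 arrays that stand apart, R-P against R-R was at -0.10 for Npc2e and -0.61 for Npc2h. The F test of whether the 5 differences are equal did not pass for either gene (limma adjusted p = 0.215 and 0.623 over 15309 probe sets), and 4.35% of all probe sets show such opposite pairs. Without the 4 arrays that stand apart the adjusted p was 0.453 and 0.890. The 3 arrays of a group are too few for the check for a single far array.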

How the results depend on the processing

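The count of Npc2 genes called was recomputed for 10 comparisons, and 391 of 399 values equalled the count reported. The 8 others all concern R-P against R-R, where the count of 1 (Npc2d) became 0 with only the compared groups in the model, without the 2 arrays with ovary transcripts, without the 2 low-cuticle arrays of R-R and without these 4 arrays. Leaving out single arrays gave 0 to 1 there. Npc2d itself had a limma adjusted p of 0.119, 0.214, 0.755 and 0.995 in those 4 settings, and from 0.00882 upward over all 40. The replicate block left the count at 1 (Npc2d -1.37 ± 0.27, limma adjusted p = 0.0104) and changed no other count of Npc2 genes. With a minimum mean of 2, Npc2c and Npc2e could not be fitted. Among single genes, averages over the 5 pairs that were near 0 turned sign 4 times: Npc2e at 0.006 without the 2 low-cuticle arrays of R-R and 0.0197 without the 4 arrays, Npc2g at 0.0003 without the 4 arrays, and Npc2c at -0.007 without replicate 2 of R-R-R (-0.007 to 0.042 over all single arrays left out). The causes were not tested. Array signal over background is not given in the deposited values, so what dimness hides in Npc2c and Npc2e cannot be stated.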
